A study of Mus musculus with 15 samples.

Results

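The promoters of 10 immediate early response genes were examined in ChIP-MNase data of mouse cells, namely those of Egr1, Egr2, Egr3, Ier2, Ier3, Ier5, Nr4a1, Myc, Klf2 and Klf6. They were chosen by name, by matching the RefSeq identifier of each promoter to a gene symbol, and make up 10 of the 25881 promoters in the data (1 promoter per gene). In ChIP-MNase, chromatin bearing a given mark is selected by immunoprecipitation and trimmed with micrococcal nuclease (MNase), and the DNA that survives marks nucleosomes. The 12 H3K4me1 libraries comprised pooled sets of dendritic cells (DCs) and 3T3 fibroblasts, either non-stimulated or treated with LPS (DCs, at 100 ng/ml) or TNF-α (fibroblasts, at 5 ng/ml) over 1 h, 1 set each, in which the authors had combined 2 replicates. The other 8 were control and BAF-knockdown (Brg1 and Brm) fibroblasts, non-stimulated or TNF-α-stimulated, with 2 replicates each. The last 3 libraries came from TNF-α-stimulated fibroblasts and were made against RNA polymerase II phosphorylated at serine 7 (S7P, 2 replicates) or serine 5 (S5P, 1 library). DCs were differentiated in GM-CSF from bone marrow progenitor lines, 3T3 is an immortalised mouse fibroblast line, and the knockdown was made by retroviral transduction and sorting for GFP. The pooled fibroblast sets are not the control arm of the knockdown experiment. The study describes its replicates as independent biological samples. It lists 2 of them for S5P as well, and whether the single S5P library combines them is not given in the labels.

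Immediate early genes are switched on within minutes of a stimulus, without the need for new protein synthesis, by transcription factors that are already present in the resting cell. Most encode transcription factors or regulators of signalling that shape the later response, and their promoters in resting cells are known for paused polymerase and accessible chromatin. At an active promoter, a nucleosome-depleted region (NDR) typically lies just upstream of the transcription start site (TSS), flanked by a −1 and a strongly placed +1 nucleosome.

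All 10 promoters were CpG islands by mm9 sequence within 200 bp of the TSS (GC content above 50% and observed to expected CpG ratio above 0.6), against 48.3% of all 25738 promoters that could be read, and all 10 still met these limits within 500 bp. GC content ranged from 50.4% at Egr2 to 71.1% at Nr4a1. Short sequence motifs differed more between them. From −250 to 50 bp, CArG boxes (the site of serum response factor) were present at Egr1 and Egr2, against 1.46% of all promoters. A κB site (bound by NF-κB) was present at Ier3 and Nr4a1 (background 4.7%), a MEF2 site at Klf2 (0.474%) and a full cAMP response element at Ier2 (2.38%). The GC box letters GGGCGG occurred at 6 of the 10 (45.3%), TGACG at 5 (23.8%) and TATAAA at Myc alone (12.7%), whereas TGANTCA and the EGR site itself occurred at none (7.11% and 0.839%). The Myc match lay downstream of the TSS, at 15 to 20 bp, and variants of TATAAA were not searched. A CArG box was taken as CC, then 6 A or T, then GG, and each motif was searched on both strands, so that TGACG matches include the full cAMP response element, and the GC box at Ier3 overlaps its κB site.

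The 150 bases upstream of the TSS, in which depletion was measured, are shown for 5 of the promoters that were depleted in at least 3 of the 4 pooled sets and for 2 of those that were not (Egr3 and Myc). Egr1 and Klf6, also depleted in at least 3 sets, and Nr4a1, which was not, are left out. Capitals mark motif matches on either strand, and the last base lies directly before the TSS.
Ier3 (mm9 chr17:35958508-35958657, plus strand): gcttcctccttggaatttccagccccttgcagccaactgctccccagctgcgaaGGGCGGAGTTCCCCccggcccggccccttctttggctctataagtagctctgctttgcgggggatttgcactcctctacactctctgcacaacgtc
Ier2 (mm9 chr8:87186752-87186901, minus strand): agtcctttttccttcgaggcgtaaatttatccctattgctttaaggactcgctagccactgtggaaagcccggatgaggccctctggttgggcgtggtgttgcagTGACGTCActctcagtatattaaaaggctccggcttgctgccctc
Egr2 (mm9 chr10:67000467-67000616, plus strand): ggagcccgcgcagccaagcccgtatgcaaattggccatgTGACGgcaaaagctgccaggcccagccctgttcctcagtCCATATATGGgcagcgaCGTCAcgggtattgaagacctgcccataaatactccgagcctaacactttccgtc
Klf2 (mm9 chr8:74842811-74842960, plus strand): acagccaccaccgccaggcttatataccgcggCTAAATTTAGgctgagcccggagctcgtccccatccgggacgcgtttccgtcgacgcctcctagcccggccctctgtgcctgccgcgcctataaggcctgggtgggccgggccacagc
Ier5 (mm9 chr1:156946767-156946916, minus strand): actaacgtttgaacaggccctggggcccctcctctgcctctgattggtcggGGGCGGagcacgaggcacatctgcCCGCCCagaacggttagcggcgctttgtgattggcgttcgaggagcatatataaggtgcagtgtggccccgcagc
Egr3 (mm9 chr14:70477102-70477251, plus strand): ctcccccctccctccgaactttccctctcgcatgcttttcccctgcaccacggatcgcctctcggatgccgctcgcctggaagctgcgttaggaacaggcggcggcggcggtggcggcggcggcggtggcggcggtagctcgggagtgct
Myc (mm9 chr15:61816746-61816895, plus strand): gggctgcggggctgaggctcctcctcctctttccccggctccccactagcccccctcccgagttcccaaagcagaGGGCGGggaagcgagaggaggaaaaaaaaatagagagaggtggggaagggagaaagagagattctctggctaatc

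At Ier3 the capitals hold the GC box and the κB site (−92 to −83 bp), at Ier2 the cAMP response element (−45 to −38 bp), at Egr2 a CArG box (−72 to −63 bp) between a pair of TGACG matches, at Klf2 the MEF2 site (−118 to −109 bp), and at Ier5 and Myc GC boxes. The Egr3 window held none of the letters searched and had the highest GC content of those shown, at 70.7%.

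Before values are compared, coverage has to be considered. The fragment score of the deposited promoter annotation, for which the study used a minimum of 100 within 2 kb, was 142 at Klf6, 161.25 at Egr3, 183 at Ier3, 205 at Myc and 242 at Nr4a1. It was lower at Ier5 (42.5), Egr2 (68.5), Egr1 (79.5), Ier2 (80) and Klf2 (87.75), so that 5 of the 10 promoters lay under the minimum and a single fragment weighs more in their profiles. Occupancies are a signal relative to the local total and hold no read counts, so depth per value is unknown. Values were scaled to a mean of 1 per library over the 13559 high-coverage promoters, so that 1 is an average bin. The NDR ratio compares occupancy in the 150 bp before the TSS (the window) with that of the upstream flank (−1000 to −500 bp), each with 0.2 added, and a promoter was called depleted below 0.5. Because of this addition, an empty window gives a low ratio rather than 0. The patterning level measures how closely a profile follows the mean profile of active promoters of the same cell-type and is higher for a stronger NDR and phased nucleosomes.

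Before any stimulus, depletion was more frequent among the 10 promoters than among all promoters. In non-stimulated DCs 7 of the 10 were depleted, against 31.8% of all promoters, and in non-stimulated fibroblasts 7 of 10, against 32.3%. After LPS 6 of 10 were depleted (35.6% of all promoters) and after TNF-α 7 of 10 (36.3%). Mean occupancy of the 10 promoters in the window was 0.289 in non-stimulated DCs, compared with 0.589 for active and 0.951 for inactive promoters, and 0.28, 0.519 and 0.966 in non-stimulated fibroblasts. Median NDR ratios in non-stimulated DCs and fibroblasts were 0.268 and 0.21 for the 10 promoters, and 0.572 and 0.493 for active promoters. Depletion was thus common among active promoters, and its share among these or among CpG islands was not counted. The excess over all promoters lay with the promoters of low coverage. All 5 of these were depleted in both non-stimulated sets, against 30.5% (DCs) and 29% (fibroblasts) of promoters at or under the minimum, whereas of the 5 above it, only Ier3 and Klf6 were depleted in each, against 33.1% and 35.3% of high-coverage promoters. The part of coverage in this split was not tested.

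**Figure D1:**
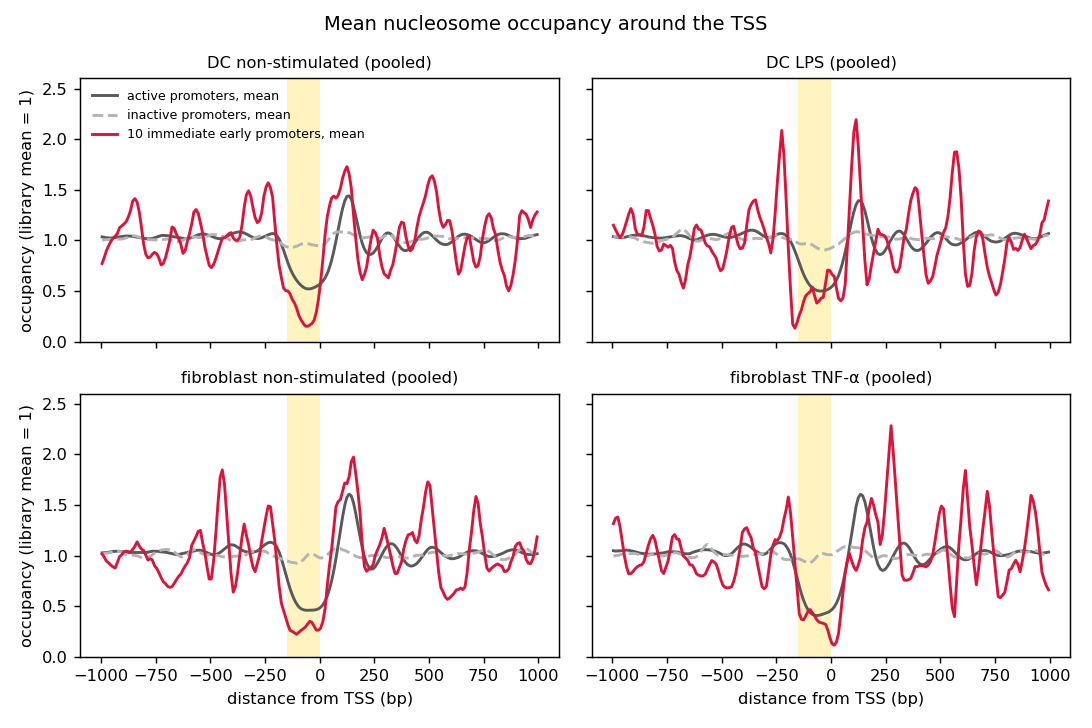
Mean nucleosome occupancy (y axis, library mean of 1) against distance from the TSS in bp (x axis) in the 4 pooled H3K4me1 sets, for the 10 immediate early promoters (red), active promoters (dark grey) and inactive promoters (dashed grey), with the window from −150 to 0 bp shaded. The red line lies below that of active promoters across the whole window before stimulation, with means of 0.289 in DCs and 0.28 in fibroblasts.

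Across the 4 pooled sets, 4 promoters (Egr1, Egr2, Ier2 and Ier5) were depleted in every set, against 9.84% of all promoters, and Egr3 was depleted in none. Over all 15 libraries, the number in which a promoter was depleted ran from 12 for Ier2 and 11 each for Egr1, Egr2 and Ier5 down to 4 for Myc and 3 for Egr3.

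**Figure D2:**
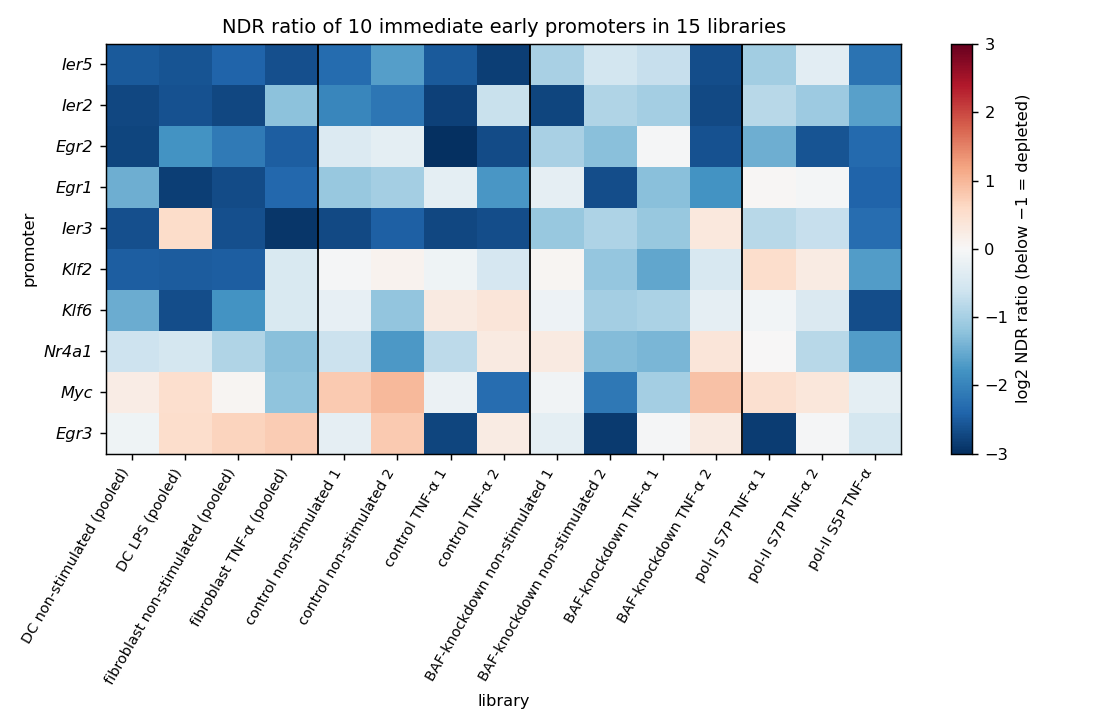
Log2 NDR ratio (colour, with depletion below −1 in blue) of the 10 promoters (rows) in the 15 libraries (columns, vertical lines separating pooled sets, control, BAF-knockdown and pol-II libraries). Ier5, Ier2, Egr2 and Egr1 are blue in all 4 pooled sets, Egr3 and Myc are pale or red in most libraries, and Ier3 is dark blue in all 4 control libraries and paler or red in all 4 knockdown libraries.

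The Ier genes encode proteins of the early response to growth factors and stress. Ier5, whose product regulates heat shock factor and growth, lies on the minus strand with its TSS at chr1:156946766 (mm9). Its NDR ratio was 0.174 in DCs before and 0.167 after LPS, and 0.189 before and 0.16 after TNF-α in fibroblasts. No fragment was recorded in the window in any of these 4 sets, and the ratio was also below 0.5 in all 4 control libraries (0.142 to 0.317). Its patterning level was the highest of the 10 promoters in non-stimulated fibroblasts (26.6, against a median of 3.51 for high-coverage promoters). Ier2, which encodes a nuclear regulator of transcription (TSS chr8:87186751, minus strand), had an NDR ratio of 0.15 in both non-stimulated sets and 0.164 after LPS, with an empty window in these 3 sets. After TNF-α it was 0.424, with fragments in 14 of the 15 bins of the window. Its +1 nucleosome peaked at 105, 115 and 125 bp in the 3 sets with an empty window.

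Ier3, whose product restrains cell death and NF-κB signalling (TSS chr17:35958658, plus strand), showed the widest range of the group over the 4 pooled sets on the log2 scale. The NDR ratio was 0.162 in non-stimulated DCs and 1.48 after LPS, and 0.162 before and 0.132 after TNF-α in fibroblasts. In LPS-stimulated DCs a nucleosome was thus recorded in the window, with its peak at −85 bp, and no fragment was recorded from 50 to 200 bp, where the other pooled sets had occupancies of 1.17 to 2.54. Expression of Ier3 before stimulation was 12.8 FPKM in DCs and 13.6 in fibroblasts, on scales that differ between cell-types.

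The Egr genes encode zinc finger transcription factors that bind GC-rich sites. Egr1 (TSS chr18:35020861, plus strand) had an NDR ratio of 0.365 in non-stimulated and 0.142 in LPS-stimulated DCs, and of 0.156 before and 0.196 after TNF-α in fibroblasts. In the last 3 sets its window was empty, although the TNF-α set held fragments in only 31% of the bins of the whole Egr1 profile. Egr2 (TSS chr10:67000617, plus strand) had ratios of 0.149 and 0.288 in DCs and 0.23 and 0.18 in fibroblasts, and the peak of its −1 nucleosome lay between −255 and −195 bp in the 4 sets. Egr3 (TSS chr14:70477252, plus strand) differed from both. Its ratios of 0.915 and 1.44 in DCs and 1.58 and 1.7 in fibroblasts lay above those of all other promoters of the group in both fibroblast sets, and at least 12 of the 15 bins of its window held fragments. Expression of Egr3 before stimulation was 0.255 FPKM in DCs (percentile 61 of all promoters) and 0.629 in fibroblasts (percentile 54). With a limit of 0.02 of the mean expression in each cell-type, Egr3 counted as active in DCs only. Egr1, at 0.643 FPKM in DCs and 15.7 in fibroblasts, counted as active in both. Egr2, at 19.4 FPKM in DCs and 0.556 in fibroblasts, counted as active in DCs only. The windows of Egr1 and Egr2 were depleted in both cell-types.

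Egr1 and Egr2 carry the CArG boxes of the group. In a wider search from −500 to 100 bp, Egr1 had 5 of them, at −407, −369, −353, −105 and −83 bp, and Egr2 had 2, at −375 and −72 bp. Both boxes of Egr2 had an occupancy of 0 in all 4 pooled sets. At Egr1 the boxes at −407 and −83 bp were at 0 in all 4, and the other 3 were at 0 except in non-stimulated DCs, at 0.525 (−353 bp), 0.272 (−369 bp) and 0.23 (−105 bp). Of the 764 CArG boxes in this range over all promoters, 24.6% to 32.6% were at 0 in a given pooled set. Of the 215 from −150 to −1 bp, 31.2% to 44.2% were at 0. The boxes of Egr1 at −105 and −83 bp and of Egr2 at −72 bp lie there, and their zeros in part restate an empty window. The single libraries varied more. The box of Egr2 at −72 bp was at 0 in both control TNF-α libraries, and at 0.436 and 0.854 in the control non-stimulated libraries. In the knockdown libraries it was at 0.716 and 0 without and at 1.2 and 0 with TNF-α, so that the stimulated and non-stimulated libraries overlapped.

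**Figure D3:**
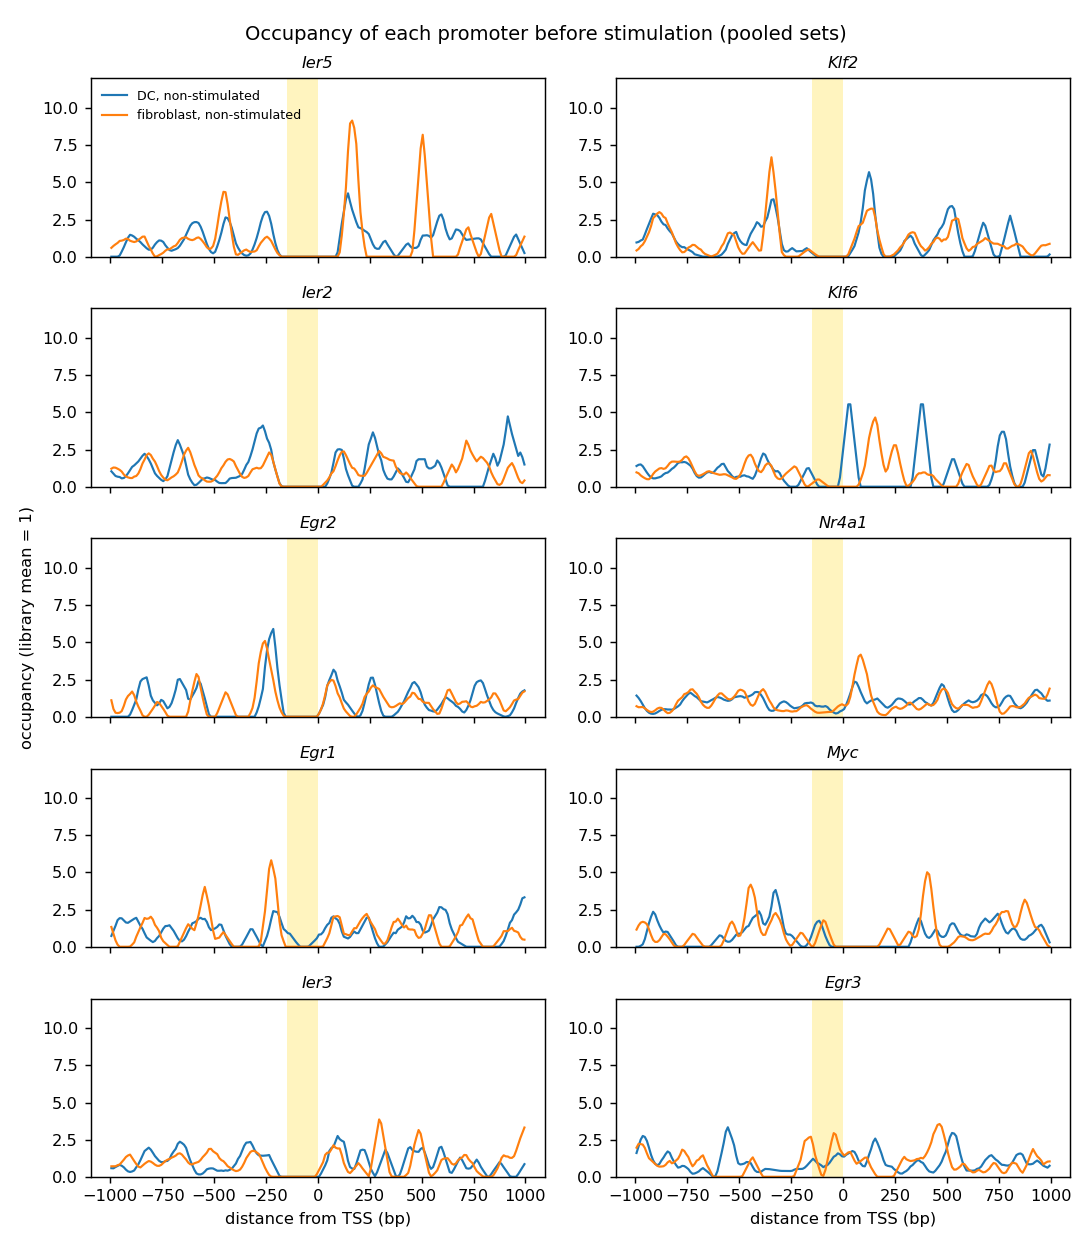
Occupancy (y axis, library mean of 1) of each of the 10 promoters against distance from the TSS in bp (x axis) in non-stimulated DCs (blue) and fibroblasts (orange), pooled sets, with the window from −150 to 0 bp shaded. The window is empty in both cell-types at Ier5, Ier2 and Egr2, and holds fragments in both at Egr3, Myc and Nr4a1.

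The Klf genes encode zinc finger transcription factors of the Krüppel family. Klf2 (TSS chr8:74842961, plus strand) had NDR ratios of 0.179 and 0.178 in DCs, 0.181 in non-stimulated and 0.734 in TNF-α-stimulated fibroblasts. The MEF2 site at −118 bp was at 0 in all 4. Its patterning levels in DCs, 22.3 and 20.3, were the highest of the group there. Klf6 (TSS chr13:5860735, plus strand), the most highly expressed of the group in both cell-types (FPKM of 59.8 in DCs and 41.7 in fibroblasts), had ratios of 0.357 and 0.158 in DCs and 0.288 and 0.725 in fibroblasts. Both Klf promoters were thus higher after TNF-α and neither was higher after LPS. In the control libraries of the knockdown experiment, by contrast, Klf2 had ratios of 0.704 to 1.08 and was depleted in 0 of 4, and Klf6 was depleted in 1 of 4.

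Nr4a1, which encodes an orphan nuclear receptor (TSS chr15:101097277, plus strand), had intermediate ratios of 0.654 and 0.694 in DCs and 0.536 and 0.422 in fibroblasts. Its expression before stimulation was listed at 0 in DCs and 13.4 FPKM in fibroblasts, and its patterning levels in the 4 sets ranged only from 3.46 to 5.49. Myc, the bHLH transcription factor that drives growth (TSS chr15:61816896, plus strand), had ratios of 1.17 and 1.42 in DCs, 1.05 in non-stimulated and 0.43 in TNF-α-stimulated fibroblasts. In the last set its window was empty, but its flank was also sparse (0.265).

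Effects of stimulation were examined first in the pooled sets, which have no replicates and so no test. Upon LPS, the NDR ratio was at least 2-fold higher at Ier3 (log2 difference 3.19) and at least 2-fold lower at Egr1 (−1.36) and Klf6 (−1.18), that is 1 and 2 of 10 promoters, against 15% and 19.5% of all promoters. Egr2 lay just inside this limit, at 0.95. Upon TNF-α, it was at least 2-fold higher at Klf2 (2.02), Ier2 (1.50) and Klf6 (1.33), against 13.8% of all promoters, and at least 2-fold lower at Myc (−1.28), against 18.6%. Between non-stimulated cell-types, only Egr1 had a ratio at least 2-fold higher in DCs (1.23, against 18.8% of all promoters). No promoter of the group had a ratio at least 2-fold lower in DCs, against 16.1% of all promoters. Median log2 differences of the 10 promoters were 0.11 for LPS and −0.06 for TNF-α, beside −0.06 and −0.07 for high-coverage promoters. With an addition of 0.5 in place of 0.2, only 1 promoter passed 2-fold in each stimulation.

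The 8 single fibroblast libraries allowed these differences to be set against replicate error. For each promoter, patterning level and log2 NDR ratio were fitted with limma (terms for stimulus and for knockdown), and p-values were adjusted by Benjamini-Hochberg over all promoters tested. No promoter passed an adjusted p of 0.05 for either term in either measure, at a background of 0 of 13559, and none of the 10 passed in the fit to all 25881. Without adjustment, 774 (TNF-α) and 793 (BAF-knockdown) high-coverage promoters had a p below 0.05 for patterning, and 792 and 749 for the NDR ratio. The 8 libraries themselves differed in a way that followed no single label. The median NDR ratio of high-coverage promoters was 0.776 to 0.791 in control non-stimulated 1, control TNF-α 1 and both BAF-knockdown non-stimulated libraries. It was 0.683 to 0.704 in the other 4. This split went with replicate in the control arm and with stimulation in the knockdown arm. It therefore cannot be fully told apart from effects of TNF-α or of the interaction. Subtracting each library's median left the counts at 0.

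For TNF-α, effects on the NDR ratio were spread around 0 at the 10 promoters (5 above and 5 below, from −1.37 to 0.50 on the log2 scale), beside a median size of 0.424 over all promoters. Egr2 had the lowest. Its NDR ratios were 0.754, 0.817, 0.508 and 0.416 in the 4 non-stimulated libraries and 0.12, 0.155, 0.978 and 0.162 in the 4 TNF-α-stimulated ones, in the order control 1, control 2, BAF-knockdown 1 and BAF-knockdown 2. Thus 3 of the 4 stimulated libraries lay below all non-stimulated libraries, with BAF-knockdown 1 above them (effect −1.37 ± 0.72 SE, limma adjusted p = 0.888). How many of all promoters separate in this partial way was not counted. The patterning level of Egr2 was higher by 9.93 ± 3.70 (SE) with TNF-α (adjusted p = 0.81). For Klf2, Ier2 and Klf6, which were higher after TNF-α in the pooled sets, effects in the 8 libraries were −0.42 ± 0.36, 0.14 ± 0.68 and 0.50 ± 0.41 (SE).

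For BAF-knockdown, 5 promoters had a higher and 5 a lower NDR ratio than control. At Ier3 the ratio was 0.152, 0.184, 0.152 and 0.158 in the control libraries (non-stimulated 1 and 2, TNF-α 1 and 2) and 0.456, 0.524, 0.452 and 1.24 in the knockdown libraries in the same order. All 4 knockdown libraries lay above all 4 control libraries, which holds for 1.36% of all promoters and for 1 of the 10 promoters here. No fragment was recorded in the window in any control library, whereas 8 to 15 of its 15 bins held fragments in the knockdown libraries. The κB site at −92 bp was at 0 in all 4 control libraries and both pooled fibroblast sets, and at 0.536, 0.825, 0.582 and 1.97 in the knockdown libraries. Without knockdown, this site was also occupied in LPS-stimulated DCs (3.76) and in the S7P libraries (0.77 and 0.869), beside 0.0217 in the S5P library. The fitted effect of knockdown on the NDR ratio was 1.91 ± 0.39 (SE) on the log2 scale. Its unadjusted limma p was 0.00195 and its adjusted p 0.609, so it did not pass the threshold over all promoters. With an empty window in every control library, the size of this effect depends on the value added: it was 3.55 (adjusted p = 0.181) with 0.05 and 1.1 (adjusted p = 0.738) with 0.5 in place of 0.2. The effect on its patterning level was −8.58 ± 3.50 (SE, adjusted p = 0.84), with libraries that overlapped between arms. Both replicates 1 of the knockdown carry another mark in their names than the other 6 libraries, which the labels do not explain. The mark may stand for the amount of MNase, in which case digestion and knockdown cannot be told apart in replicate 1. In replicate 2, where both arms carry the same mark, the ratios at Ier3 were 0.524 and 1.24 in knockdown and 0.184 and 0.158 in control libraries.

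**Figure D4:**
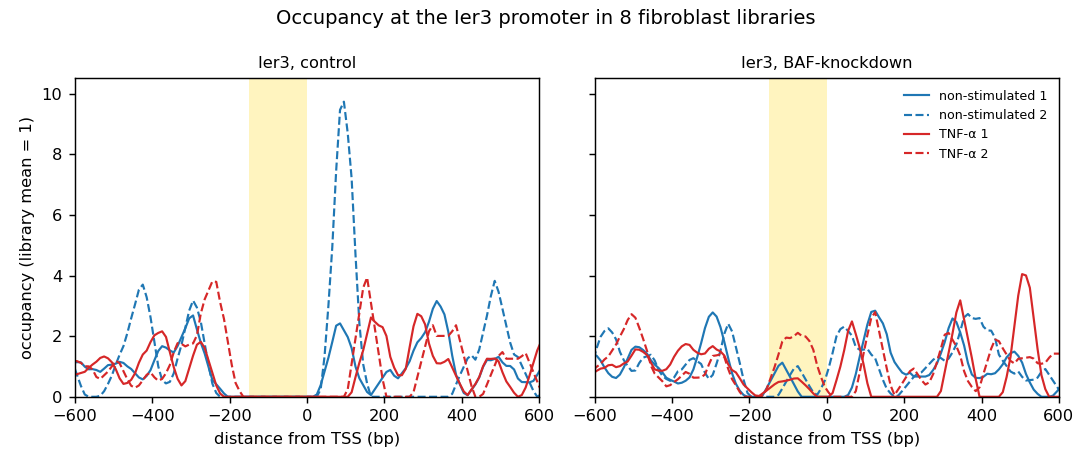
Occupancy (y axis, library mean of 1) at the Ier3 promoter against distance from the TSS in bp (x axis) in the control libraries (left) and BAF-knockdown libraries (right), non-stimulated in blue and TNF-α-stimulated in red, replicate 1 solid and replicate 2 dashed, with the window from −150 to 0 bp shaded. The window is empty in all 4 control libraries and occupied in part in all 4 knockdown libraries.

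At Ier5 the arms overlapped, with 3 of 4 knockdown libraries above all control libraries. The share of all promoters with such a partial separation was not counted. The ratio at Ier5 was 0.201, 0.317, 0.175 and 0.142 in the control libraries and 0.511, 0.681, 0.619 and 0.159 in the knockdown libraries (effect 1.11 ± 0.45 SE, adjusted p = 0.883). With the window moved to −100 to 50 bp, the effect at Ier5 was only 0.24 (SE 0.82, adjusted p = 1). The TNF-α-stimulated knockdown library 2 overlapped the control libraries and had an empty window. The other 8 effects ranged from −0.64 at Klf2 to 0.39 at Egr2. No promoter of the group was without overlap between TNF-α-stimulated and non-stimulated libraries, or between arms for the patterning level. Such separation was rare among all promoters too, so that 0 of 10 is near the background. With TNF-α, 0.981% lay above and 1.7% below for the NDR ratio, and 1.58% and 1.1% for the patterning level. With knockdown, 1.38% lay above and 1.43% below for the patterning level. For the interaction of stimulation and knockdown, 0 of 13559 promoters passed for patterning (766 at an unadjusted p below 0.05). In the limma fit over all promoters, the lowest adjusted p among the 10 was 0.772, at Myc (estimate −22.2 ± 6.97 SE). In the high-coverage fit it was 0.858 at Myc.

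With all 4 control libraries as replicates, the order of the promoters by log2 NDR ratio ran from Ier3 (−2.63 ± 0.13 SD, n = 4), Ier5 (−2.32 ± 0.49) and Ier2 (−1.90 ± 0.90) to Klf6 (−0.19 ± 0.71), Myc (−0.18 ± 1.49) and Klf2 (−0.14 ± 0.26). No pair of neighbours in this order differed by more than the larger of their SDs, and the same held for patterning levels, from Ier5 (16.9 ± 5.4 SD) down to Myc (−1.93 ± 4.68 SD). These SDs also contain any difference with TNF-α, so they can exceed replicate error. For the log2 NDR ratio of Egr2, the SD was 1.47 over the 4 libraries. Between its replicates it was 0.08 without and 0.26 with TNF-α. Between replicates of control non-stimulated cells, profiles over the 200 bins correlated with Pearson's r of 0.03 (Egr2) to 0.49 (Ier5), with a median of 0.26 for the 10 promoters and 0.18 for high-coverage promoters. Neighbouring bins share fragments and are not independent.

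The pol-II libraries recover chromatin that carries polymerase, with S5P typical of initiating and promoter-proximal polymerase. In the S5P library, 8 of the 10 promoters were depleted, all except Egr3 (0.691) and Myc (0.811), against 44.2% of all promoters. These were 5 of 5 promoters under the coverage minimum (42.6% of such promoters) and 3 of 5 above it (45.7%). The median patterning level of the group was 14.4, beside 5.79 for high-coverage promoters. Among the S5P values were Klf6 at 0.158 and Nr4a1 at 0.313, whereas the same promoters were at 1.21 and 1.28 (Klf6) and 0.584 and 1.2 (Nr4a1) in control TNF-α H3K4me1 libraries. In the pooled TNF-α fibroblast set they were at 0.725 (Klf6) and 0.422 (Nr4a1), the latter already depleted. In the S7P libraries 3 and 2 of 10 were depleted, against 30.5% and 26.7% of all promoters, with median NDR ratios of 0.757 and 0.773 for the group. There is 1 S5P library, and it was made with paired-end reads like S7P but unlike H3K4me1, so antibody and type of sequencing cannot be told apart against H3K4me1. The pol-II libraries also carry the label of the plain fibroblasts, whereas the single H3K4me1 libraries are the control arm of the knockdown experiment.

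**Figure D5:**
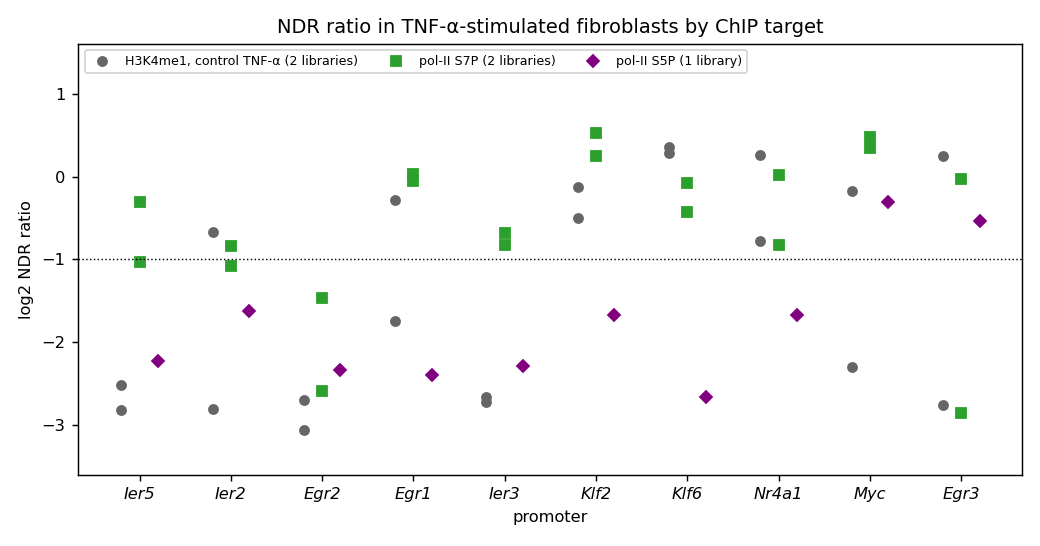
Log2 NDR ratio (y axis, dotted line at the limit for depletion) of the 10 promoters (x axis) in TNF-α-stimulated fibroblasts, for H3K4me1 control libraries (grey circles), pol-II S7P libraries (green squares) and the pol-II S5P library (purple diamonds), 1 point per library. The S5P points of 8 promoters lie below the line and those of Myc and Egr3 above it.

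Patterning in S7P was compared by limma with control TNF-α H3K4me1 libraries, from which it differs in antibody, type of sequencing and control arm together. None of 13559 promoters passed (840 at an unadjusted p below 0.05). Differences at the 10 promoters ranged from −10.7 ± 4.0 (SE) at Egr2 (adjusted p = 0.68) to 5.35 at Nr4a1 (adjusted p = 0.823), with 7 below 0. Ier5 was lower by a similar amount in both S7P libraries (5.1 and 5.05, beside 13.3 and 11.4 in H3K4me1; adjusted p = 0.676). At Ier3 the patterning levels were 8.58 and 6.28 in S7P, and 10.4 and 17 in H3K4me1, and the NDR ratios 0.562 and 0.623 against 0.152 and 0.158. A limma fit of the NDR ratio, which was not planned, gave 1.93 ± 0.39 (SE) on the log2 scale for Ier3 (adjusted p = 0.363). No promoter passed in it. Of 1381 high-coverage promoters at an unadjusted p below 0.05, 959 were higher and 422 lower in S7P. Of the 10 promoters, 7 had a higher ratio in S7P.

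A further list of 46 other immediate early and primary response genes, which includes Fos and Jun family members and Dusp phosphatases, was found for 44 genes with 47 promoters. In non-stimulated fibroblasts 32 of the 47 were depleted and in non-stimulated DCs 20, against the 32.3% and 31.8% of all promoters given above. After stimulation the counts were 31 and 24. Of the 20 promoters of high coverage, 12 were depleted in non-stimulated fibroblasts, 9 after TNF-α and 8 in non-stimulated DCs, beside 35.3%, 40.1% and 33.1% of all high-coverage promoters. In LPS-stimulated DCs 10 of the 20 were depleted, beside 36.9%. The lowest ratios in non-stimulated fibroblasts were those of Nr4a2 (0.142 for 1 of its promoters), Tnfaip3 (0.146 for 1 of its promoters) and Ppp1r15a (0.15), and the highest those of Plk2 (1.63), Phlda1 (1.55) and Pim1 (1.22). Nr4a2 is the close relative of Nr4a1, and Tnfaip3 encodes the NF-κB inhibitor A20. None of the 47 passed the limma test in any comparison at an adjusted p of 0.05.

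Of the high-coverage promoters outside the group, those with profiles most like its mean over the 4 pooled sets (800 bins) were Dctn3 (r = 0.48), Wdr82 (r = 0.46), Il4ra (r = 0.46), Fdxacb1 (r = 0.45) and Mrpl12 (r = 0.44). All 5 had NDR ratios below 0.4 in each pooled set. They were picked on these same sets for likeness to a mean that is low in the window, so this largely follows from the choice. The promoters of the group itself correlated with their own mean, in which each takes part, at 0.06 (Egr3) to 0.47 (Egr1).

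The labelled cell-types were checked by the NDR ratios of marker promoters. Of 13 promoters of DC marker genes, 10 had a lower ratio in non-stimulated DCs than in fibroblasts (medians of 0.541 and 1.21). Of 12 promoters of fibroblast marker genes, 4 had a lower ratio in DCs, and the medians lay close together (0.847 in DCs and 0.754 in fibroblasts), so that these markers bear little on the fibroblast label. The expression values above come from public RNA-seq and not from these libraries, and cannot check the labels. Brg1 and Brm mRNA cannot be checked in these values.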

How the data were processed

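ChIP-MNase profiles of 15 libraries were used. Reads had been aligned by the authors with bowtie (Bowtie2 is named in the submitters' processing notes) to mm9, excess duplicates removed, and fragments counted in 10 bp bins relative to the surrounding 1 kb and averaged over 50 bp bins. Deposited values are therefore a locally normalised occupancy signal in 200 bins from −1000 to 1000 bp of each TSS. The deposited annotation also holds a fragment score (a signal per promoter) and expression before stimulation in FPKM, from public RNA-seq of other samples. It also holds the authors' changes of expression upon stimulation, which were not used.

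Bins without a value were read as 0. Symbols were matched through the reference gene table for 24924 promoters. Table starts were read as 1-based, since 61% of plus strand starts equal an annotated start. Promoters with expression over 0.02 of the mean counted as active. The mean occupancy of active, non-stimulated promoters of each cell-type, rescaled from 0 to 1 and centred, was multiplied with occupancy minus its own mean to give the patterning level. Fibroblast templates served pol-II libraries.

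Tests used limma (version 3.58.1, R 4.3.3) with Benjamini-Hochberg adjustment, tested on simulated data. Low-coverage promoters were fitted over all 25881. The members and gene lists were chosen with earlier results of these data known. The promoters named outside the group are, by rule, those of the further list past a test (there were none), its 3 lowest and 3 highest NDR ratios in non-stimulated fibroblasts, and the 5 promoters most alike. Sequence came from the mm9 reference genome. Alternatives covered scaling, square roots, pseudocounts of 0.05 and 0.5, another NDR window and flanks, coverage, replicate block, a trended robust prior and libraries left out.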

Additional observations from a re-analysis of the deposited data

How the results depend on the processing

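The counts of promoters past the adjusted threshold stayed at 0 for stimulation, knockdown, their interaction and S7P under all alternatives except for the NDR ratio with TNF-α, where 13 promoters passed with a pseudocount of 0.05. Leaving out libraries gave 0 to 2 for that count, with the 2 without control TNF-α replicate 1, and 0 to 0 for the other counts. The replicate numbers did not pair the libraries (correlations of same-numbered deviations were near 0), and the fit with the replicate block gave a count of 0 in each comparison. Subtracting library medians and leaving out both knockdown replicates 1 were chosen after seeing the data. With a pseudocount of 0.5, 1 promoter passed 2-fold with LPS, 1 with TNF-α and 0 between cell-types, and 4 were depleted in TNF-α-stimulated fibroblasts. With the window from −100 to 50 bp, 5 passed with LPS and 2 between cell-types. Occupancies as deposited, which differ in scale, gave median patterning levels of 9.47, 6.85, 13.3 and 7.5 in the pooled sets of non-stimulated and LPS-stimulated DCs and non-stimulated and TNF-α-stimulated fibroblasts. The cause was not tested for any of these. The effect of knockdown on the NDR ratio of Ier3 kept its direction with each library left out (1.55 to 2.24), as did that of Ier5 (0.629 to 1.58). Over the other settings, the Ier3 effect ran from 1.1 (pseudocount of 0.5) to 3.55 (0.05), that of Ier5 from 0.241 (window from −100 to 50 bp) to 1.7 (pseudocount of 0.05), and that of TNF-α at Egr2 from −2.51 (0.05) to −0.769 (0.5). The effect on the patterning of Ier3 ranged from −15.7 to −1.45. The depth behind single values is unknown, which limits all single promoters, above all those under the coverage minimum.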
